A study of Mus musculus with 8 samples.

Results

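Membrane trafficking genes were described in neuro2a (N2a) cells, a mouse neuroblastoma line, in which Grp94 had been knocked down. Members were chosen by gene symbol alone, as every row with a symbol starting with Vps, Snx, Stx, Vamp, Tmed, Trappc, Exoc, Arl or Atp6v, with Rab, Arf or Sec followed by a digit, or with Cop followed by a, b, e, g or z. Of 2395 transcript clusters deposited by the authors, the rule took 44, which stand for 41 genes. A transcript cluster is the group of transcripts that an Affymetrix Mouse Gene 1.0 ST array reads as 1 gene. Of 295 protein-coding RefSeq genes (assembly GRCm38.p6) that fit the rule, the other 254 were not listed and have no value here. Counts of RefSeq genes by role below cover only genes that fit the rule, and genes of the same role with other symbols are not in them.

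The labels assign 4 arrays to cells transfected with a control vector and 4 arrays to cells with Grp94 knockdown. Grp94, the product of Hsp90b1, helps proteins fold in the endoplasmic reticulum (ER). Both groups are N2a cells transiently transfected with a plasmid that carries an EmGFP and miR RNAi cassette, with no other treatment named, and collected days later. The methods name several Grp94 constructs and, as controls, an unfilled vector and one with a non-targeting sequence, and the labels, which call the control "Vector knockdown", do not tell which of them each array received. The table holds 1 centred log2 mean for each group, so the spread between arrays, the level of a gene and the identity of the cells through marker genes could not be examined. The table holds only transcript clusters that passed the authors' own test, and the differences given here, knockdown minus control vector on the log2 scale, carry no error and no p-value of their own. Because RNA of whole cultures was read, less RNA in each cell and fewer cells with that RNA cannot be told apart. The target itself was lower, with a centred log2 mean of 0.74 for Hsp90b1 in the control vector and of -0.78 in the knockdown, a difference of -1.52.

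Proteins made at the ER travel to the Golgi in vesicles coated with COPII, and escaped ER proteins and Golgi enzymes return in vesicles coated with COPI. From the Golgi, cargo goes to the cell surface or to endosomes and lysosomes, whose interior is made acidic by the proton pump V-ATPase. Small GTPases of the Rab and Arf families mark each compartment, tethering complexes catch the arriving vesicle, and SNARE proteins on both membranes bring about fusion. Neuronal cells use a specialised form of the last step to release transmitter.

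Of the 44 transcript clusters, 31 (70.5%) had a lower mean in the knockdown and 13 a higher one, where 59.9% of all listed transcript clusters were lower and 40.1% higher. Their median difference was -0.17 on the log2 scale, beside -0.16 for all listed transcript clusters. The differences were small, with a median absolute log2 difference of 0.22 for the members and of 0.25 for all. Beyond a fold of 1.3, a size limit that stands in for a call here, 5 members (11.4%) were lower, beside 16.1% of all listed transcript clusters. Only the 2 transcript clusters of Atp6v1f (4.55%) were higher beyond that limit, beside 6.26% of all. The lower ones were Vamp2, Rab28, Sec24d, Cope and Stxbp4. The median and both shares of the members lay near those of the whole table.

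The sign of a small difference rests on the zero point of the scale. When values were re-centred on the listed median of -0.16, 24 members were lower and 20 were higher, since 7 members turned from lower to higher (Copg, Copz1, Tmed1, Sec14l1, Rab3c, Snx29 and Rab5c). The median of transcript clusters outside the table is not known, and a re-centred value shows only where a member stands among the listed ones.

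**Figure D1:**
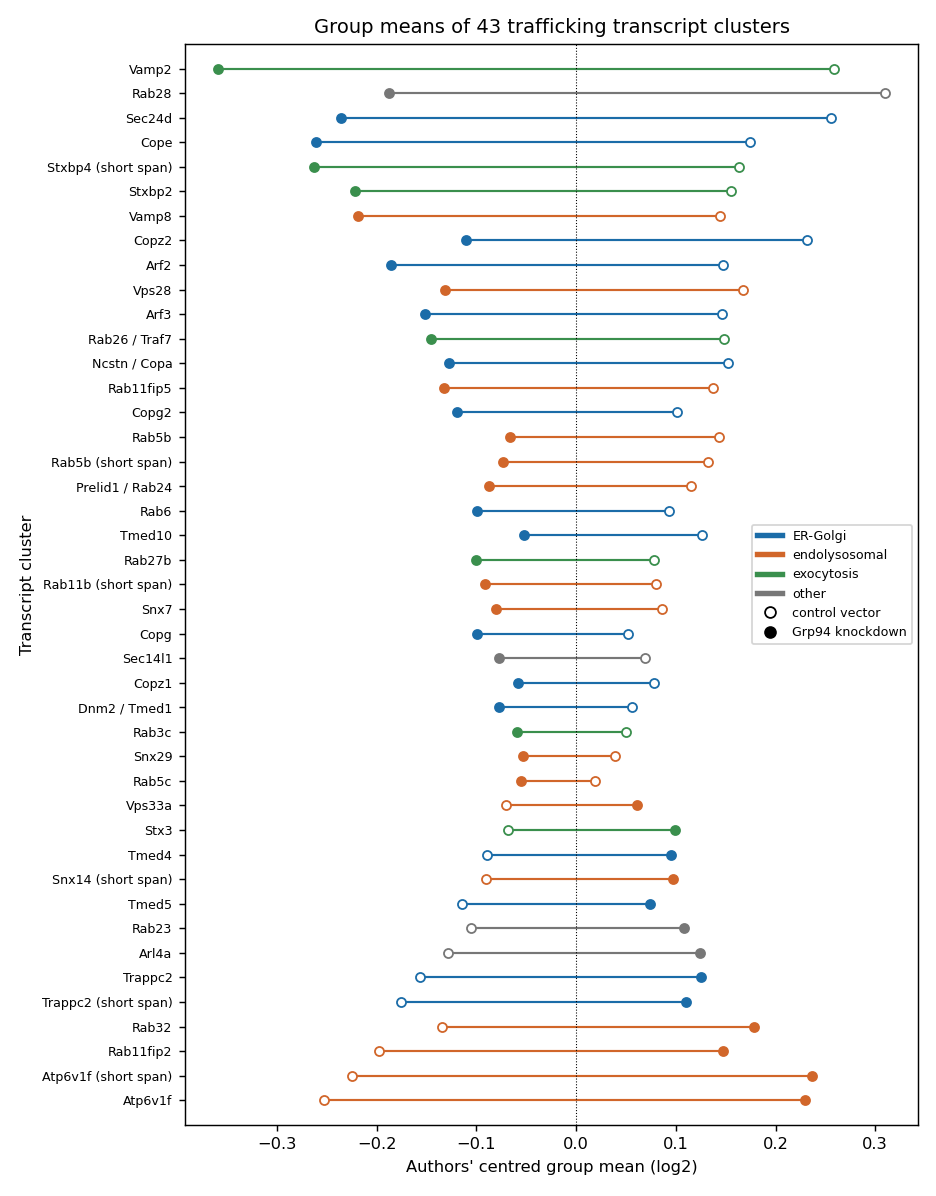
Centred group means (log2, x axis) of 43 of the 44 transcript clusters (y axis), with open circles for the control vector, filled circles for the Grp94 knockdown and a line whose length is the difference. Vamp2 has the longest line to the left (-0.62) and Atp6v1f the longest to the right (0.48), and short span marks the 6 transcript clusters under 1000 bp. Error bars are not drawn because only group means were used.

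Promoters of members were examined because the study concerns NF-Y, a transcription factor that binds the letters CCAAT. RefSeq windows of 300 bases, from 250 before to 50 after a transcription start, were matched by gene identifier for 36 of the 41 genes, with 44 windows in all. For 4 members the 250 bases before the start are shown, 5′ to 3′ on the strand of the gene in build GRCm38.p6, with CCAAT or its reverse complement in capitals. They are Sec24d (chr3:123267246-123267495, plus strand) and Cope (chr8:70302517-70302766, plus strand), the ER-Golgi members with the lowest differences, Rab5b (chr10:128696269-128696518, minus strand), the endosomal gene with the most matches, and Atp6v1f (chr6:29467533-29467782, plus strand), the member with the highest difference, which has none.
Sec24d: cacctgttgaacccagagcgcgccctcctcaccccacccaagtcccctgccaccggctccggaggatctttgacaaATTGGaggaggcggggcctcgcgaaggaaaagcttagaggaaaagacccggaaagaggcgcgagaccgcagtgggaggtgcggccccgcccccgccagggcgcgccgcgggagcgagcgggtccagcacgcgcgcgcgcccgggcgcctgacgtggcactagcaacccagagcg
Cope: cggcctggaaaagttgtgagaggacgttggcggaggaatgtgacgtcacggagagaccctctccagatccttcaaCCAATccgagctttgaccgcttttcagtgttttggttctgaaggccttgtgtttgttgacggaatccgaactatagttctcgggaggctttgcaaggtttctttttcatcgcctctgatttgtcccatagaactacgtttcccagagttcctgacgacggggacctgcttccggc
Rab5b: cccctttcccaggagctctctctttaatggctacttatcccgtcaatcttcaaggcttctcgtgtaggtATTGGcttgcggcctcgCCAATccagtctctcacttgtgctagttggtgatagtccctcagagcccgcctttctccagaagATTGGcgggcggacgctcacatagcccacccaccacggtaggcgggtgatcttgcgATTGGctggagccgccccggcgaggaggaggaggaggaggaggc
Atp6v1f: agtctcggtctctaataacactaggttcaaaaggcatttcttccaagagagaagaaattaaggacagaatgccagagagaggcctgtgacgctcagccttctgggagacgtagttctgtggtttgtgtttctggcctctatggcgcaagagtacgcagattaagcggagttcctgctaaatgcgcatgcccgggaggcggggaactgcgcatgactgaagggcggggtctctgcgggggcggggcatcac

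Counting the first base of a match back from the start site, the match lay at -174 in Sec24d and at -175 in Cope. Rab5b held 4 matches, at -181, -164, -100 and -44. On either strand of the 300 bases, CCAAT was found in 17 of 30 windows (56.7%) of lower members, in 4 of 14 (28.6%) of higher members and in 37.4% of all 32851 RefSeq windows. Lower and higher are taken here before re-centring. Of the lower members that turned higher on re-centring, Copz1, Tmed1, Rab3c, Snx29 and Rab5c held CCAAT, and Copg and Sec14l1 did not. The contrast by sign thus rests on the zero point, and it was not tested. The windows of a gene with several start sites overlap or share the gene, so they are not independent. For Tmed1, Copa, Rab24, Snx14 and Rab11b the sign comes from a cluster on another strand or chromosome than the RefSeq gene. Whether that sign is the one of the gene was not tested. By compartment the letters were present in 11 of 18 windows (61.1%) of ER-Golgi members and in 7 of 15 (46.7%) of endolysosomal members. The COPI genes had CCAAT in 2 of 6 windows (33.3%), those of Cope and Copz1, so the matches of ER-Golgi members lay mostly outside the COPI coat.

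Other letters were searched in the same windows. ACGTG, the core of the element bound by hypoxia-inducible factors, was in 13 of 44 member windows (29.5%), beside 19.6% of all, and in 4 of 6 COPI windows (66.7%). CACGTG, which holds ACGTG and is the core of the element bound by TFEB, a regulator of lysosomal genes, was in 5 member windows (11.4%), beside 7.15% of all, and in 2 of 15 endolysosomal windows (13.3%). TGATGNAAT, an element of ATF4, a factor of the amino acid response, and the ER stress element, a longer motif that includes CCAAT, were in 0 of 44 member windows, beside 0.965% and 0.119% of all. A match describes the letters of the window and is not a site of binding.

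ER-Golgi genes were lower in 12 of 16 transcript clusters (75.0%), with a median log2 difference of -0.19, and 9 of the 16 were lower on re-centring. Their 15 listed genes come from 81 RefSeq genes with that role. Sec24d, a cargo-binding subunit of the COPII coat, had the lowest difference among them, with a centred log2 mean of 0.26 in the control vector and -0.24 in the knockdown, a difference of -0.49 (chromosome 3, 122970414 to 123068554, as deposited, build not stated). It was the only listed gene of the 12 with a COPII or ER exit role that fit the rule, and Sec23a, Sec23b, Sec24a, Sec24b and Sec24c were not listed. Of the genes that fit the rule, none of 8 translocon and signal peptidase genes and none of 5 ER-Golgi SNAREs was listed, a count of 0 in both.

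Among genes that fit the rule, the COPI coat was the role with the most listed genes for its size. It had 6 of 8 listed, without Copb1 and Copb2, beside 41 of 295 over all roles. Coat genes with symbols outside the rule are not in that count. All 6 of its transcript clusters were lower, with a median log2 difference of -0.25, although Copg and Copz1 turned higher on re-centring. Cope, the epsilon subunit, had a centred log2 mean of 0.17 in the control vector and -0.26 in the knockdown, a difference of -0.44 (chromosome 8, 72826668 to 72836889), and was the only COPI gene beyond a fold of 1.3. Copz2, the less common of 2 zeta isoforms, went from 0.23 to -0.11 (difference -0.34), and its partner isoform Copz1 from 0.078 to -0.059 (difference -0.14). The gamma isoforms differed by -0.22 (Copg2, from 0.10 to -0.12) and by -0.15 (Copg, from 0.052 to -0.10). In both isoform pairs the difference was lower for the gene numbered 2, a contrast that was not tested.

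Copa, the alpha subunit, rests on a transcript cluster of doubtful identity. Its value (from 0.15 to -0.13, difference -0.28) belongs to a cluster shared with Ncstn, a subunit of gamma-secretase, and lies on the strand opposite to the RefSeq promoter of Copa. Without it, all 5 remaining COPI clusters were lower, with a median of -0.22, and 3 of them stayed lower on re-centring.

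Arf GTPases recruit COPI to the Golgi. Arf2 (from 0.15 to -0.19, difference -0.33) and Arf3 (from 0.15 to -0.15, difference -0.30) were both lower, also after re-centring. The other 7 GTPases of that role, Arf1, Arf4, Arf5, Arl1, Arl5a, Arl5b and Arl5c, were not listed. Rab6, which guides traffic back through the Golgi, had a difference of -0.19 and was the only listed gene among 13 ER and Golgi Rab genes.

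p24 proteins, which carry cargo between ER and Golgi, did not share a direction. Tmed10 was lower (from 0.13 to -0.053, difference -0.18), as was the cluster of Tmed1 (difference -0.13, turned on re-centring), which is shared with Dnm2 and lies on the opposite strand to Tmed1. Tmed4 (from -0.089 to 0.095) and Tmed5 (from -0.11 to 0.075) were higher, with differences of 0.18 and 0.19. Trappc2, a subunit of the TRAPP tethering complex, had the highest difference of the ER-Golgi genes. It was read by 2 transcript clusters, with differences of 0.28 (from -0.16 to 0.13) and 0.29 (from -0.18 to 0.11), and was the only listed gene of 15 TRAPP genes.

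Endolysosomal genes were lower in 10 of 16 transcript clusters (62.5%), with a median log2 difference of -0.13, and 8 of the 16 were lower on re-centring. They come from 14 listed genes of 125 RefSeq genes with such a role. No endolysosomal member was lower beyond a fold of 1.3, beside 16.1% of all listed transcript clusters. The 2 clusters beyond it in the other direction (12.5% of the class, beside 6.26% of all) were both of 1 gene, Atp6v1f. With so few clusters these shares were not tested. The retromer (4 genes), the GARP tether (4 genes) and the endolysosomal Arf and Arl GTPases (3 genes) had 0 listed genes.

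Atp6v1f encodes a subunit of the rotor stalk of the V-ATPase and had the highest difference of all members. Its transcript cluster on chromosome 6 (29417783 to 29420512, as deposited) had a centred log2 mean of -0.25 in the control vector and 0.23 in the knockdown, a difference of 0.48 and the 65th highest of all 2395. A transcript cluster of 356 bp on chromosome 17 carries the same symbol and had a difference of 0.46 (from -0.22 to 0.24). No other of the 22 V-ATPase genes that fit the rule was listed, so 1 subunit was higher and no value was at hand for the others. Subunits with symbols outside the rule are not in that count.

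Rab genes of endosomes went both ways. Rab5 proteins govern early endosomes, and Rab5b was lower in its 2 transcript clusters (both with a difference of -0.21), while Rab5c had the smallest difference of all members (-0.075, from 0.019 to -0.056) and turned higher on re-centring. Rab11 proteins govern recycling endosomes. Rab11b (difference -0.17) and its effector Rab11fip5 (from 0.14 to -0.13, difference -0.27) were lower, whereas the effector Rab11fip2 was higher (from -0.20 to 0.15, difference 0.34). Rab32, found on lysosome-related organelles, was higher as well (from -0.13 to 0.18, difference 0.31). The cluster named for Rab24, a Rab linked to autophagy, had a difference of -0.20, but it is shared with Prelid1, holds 12 probes and lies on the opposite strand to Rab24.

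Of the fusion and sorting machinery, Vamp8, a SNARE of late endosomes, had the lowest difference of the endolysosomal genes (from 0.14 to -0.22, difference -0.36). It was the only listed one of the 10 SNAREs of that class that fit the symbol rule. Vps28, a subunit of the ESCRT-I complex that sorts ubiquitinated cargo, had a difference of -0.30 (from 0.17 to -0.13). Vps33a, a subunit of the HOPS tether of lysosomes, was higher (from -0.071 to 0.061, difference 0.13). Of 30 sorting nexins, which bind endosomal lipids, 3 were listed, Snx7 (-0.17), Snx29 (-0.093) and Snx14 (0.19). The cluster of Snx14 spans 501 bp on the strand opposite to the gene.

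ER-Golgi and endolysosomal medians were -0.19 and -0.13, a log2 difference between the classes of -0.056, against interquartile ranges of -0.31 to -0.054 and -0.21 to 0.22. The values of both classes overlapped over most of their range. Without the V-ATPase clusters the endolysosomal share of lower clusters was 71.4% (10 of 14) with a median of -0.17, and the gap between the medians was -0.017. Without the 3 sorting nexins it was -0.015. Members are read on the same arrays and are not replicates, and the gap was not tested.

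**Figure D2:**
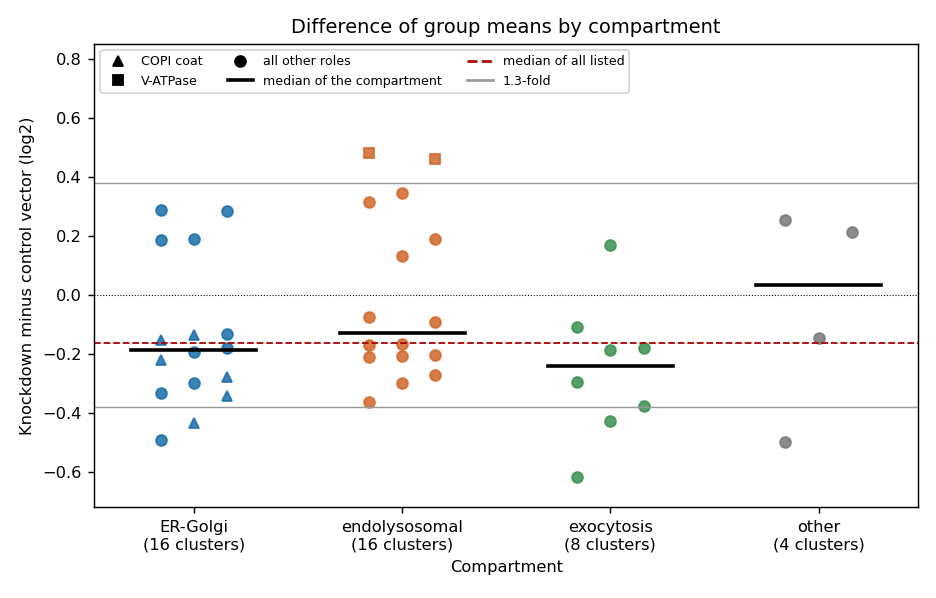
Difference of group means (log2, y axis) for each transcript cluster by compartment (x axis), with triangles for the COPI coat, squares for the V-ATPase, black bars for the median of each compartment, a dashed line for the median of all listed transcript clusters (-0.16) and grey lines at a fold of 1.3. All 6 COPI triangles lie below 0, 4 of them below the dashed line, the 2 V-ATPase squares are the highest points, and the ER-Golgi and endolysosomal medians (-0.19 and -0.13) lie on either side of the dashed line.

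Genes of exocytosis were lower in 7 of 8 transcript clusters (87.5%), with a median log2 difference of -0.24, and 6 of the 8 stayed lower on re-centring. Vamp2, the vesicle SNARE of transmitter release, had the lowest difference of all members, with a centred log2 mean of 0.26 in the control vector and -0.36 in the knockdown, a difference of -0.62 or 1.53-fold (chromosome 11, 68902012 to 68905883). It ranked 105th from the lowest of all 2395. Stxbp proteins bind syntaxins. Stxbp4 (from 0.16 to -0.26) and Stxbp2 (from 0.16 to -0.22) were lower, with differences of -0.43 and -0.38. The cluster of Stxbp4 spans 306 bp only.

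Secretory Rab genes were lower in 3 of 3 clusters, namely Rab26 (-0.29, shared with Traf7), Rab27b (-0.18) and Rab3c (-0.11), of which Rab3c turned higher on re-centring. Stx3, a syntaxin of the plasma membrane, was the only higher member of this class (from -0.069 to 0.099, difference 0.17). The exocyst, which tethers vesicles at the plasma membrane, had 0 of 12 genes listed. Vamp1 was not listed.

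Among the remaining 4 members, Rab28 had a log2 difference of -0.50 (from 0.31 to -0.19; chromosome 5, 42016215 to 42099394), the second lowest of all members. Rab28 and Rab23 are Rab proteins linked to cilia, and Rab23, a repressor of Hedgehog signalling, was higher (from -0.11 to 0.11, difference 0.21). Arl4a, an Arf-like GTPase of the plasma membrane, had a difference of 0.25 (from -0.13 to 0.12), and Sec14l1, which resembles lipid transfer proteins, one of -0.15.

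Rab5b, Trappc2 and Atp6v1f had 2 transcript clusters each, and the paired differences were -0.21 and -0.21, 0.28 and 0.29, and 0.46 and 0.48. In each pair 1 cluster spans under 1000 bp and lies on another chromosome than the RefSeq gene. The cluster of Rab11b, 657 bp long, also lies on another chromosome. Whether such probes read the mRNA of the gene or that of a copy elsewhere was not tested. Of all 44 clusters, 4 lie on another chromosome and 6 on another strand than the RefSeq gene, and the 36 without such a conflict were lower in 26 cases (72.2%).

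Trafficking genes that the symbol rule does not take were read from 9 gene lists. Autophagy genes were lower in 9 of 9 transcript clusters, which stand for 7 listed genes, where 59.9% of all listed transcript clusters were lower. Their median log2 difference was -0.36, and all 9 stayed lower on re-centring. Those beyond a fold of 1.3 were Ulk1 (-0.52), the kinase that starts autophagy, Wipi1 (-0.43), which binds the lipid of the forming membrane, and 1 of 2 clusters named for both Atg4a, a protease of the Atg8 proteins, and Syt6. That cluster (-0.41) lies on chromosome 3 and the other (-0.36) on chromosome X. Which of the 2 genes each cluster reads was not tested. Another gene of the list was read by a cluster on chromosome 14 and by one on chromosome 8, both with a difference of -0.30. Whether both read the mRNA of that gene was not tested. Lysosomal proteins were lower in 6 of 12 transcript clusters, also on re-centring. Beyond a fold of 1.3, the lysosomal lipase Lipa (-0.60) was lower and the alpha-L-iduronidase gene Idua (0.53) was higher. The lists of autophagy and of lysosomal proteins thus had different counts by sign, a difference that was not tested.

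In the early secretory route, COG complex and golgin genes were lower in 7 of 7 transcript clusters, led by Cog7 (-0.32) and Cog6 (-0.29), and 6 of the 7 stayed lower on re-centring. Translocation partners of the ER were lower in 7 of 7, of which 2 turned on re-centring. The 7 clusters stand for 6 listed genes, since 1 gene was read by 2 clusters, both shared with other genes. This list was led by Srpr (-0.46), the receptor of the signal recognition particle, and Srp68 (-0.20), a protein of that particle. ER cargo receptors and exit regulators were lower in 7 of 9, of which 1 turned on re-centring. They were led by Kdelr3, a receptor that returns ER chaperones with a KDEL tail from the Golgi, with a log2 difference of -0.85 (from 0.44 to -0.41), and by Arfgap3 (-0.45), which lets Arf1 hydrolyse GTP on COPI vesicles.

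Of the other lists, the list of SNAP, NSF and other fusion genes was lower in 5 of 7 clusters, also on re-centring. Its largest differences were in Snap23 (0.32), a SNARE of the plasma membrane, and Unc13a (-0.32), which primes vesicles for release. Unc13a had another cluster (-0.18), so the 7 clusters stand for 6 listed genes. Napb, the only other listed gene of the SNAP families and of another family than Snap23, was lower (-0.23). Rab and Arf regulators were lower in 5 of 7, of which re-centring turned 2, with the largest differences in Rabac1 (-0.38), the only one beyond a fold of 1.3, and Tbc1d22a (-0.30). Clathrin and adaptor genes were lower in 4 of 7, of which 1 turned on re-centring, with the largest differences in Ap1g2 (0.34, shared with Thtpa) and Ap1s2 (0.29), both higher and both subunits of the adaptor AP-1. ESCRT partners were lower in 3 of 3, of which 2 turned on re-centring, with the largest differences in Chmp2a (-0.20) and Hgs (-0.12). The cluster of Dnm2 and Tmed1 is counted both here and among the members.

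**Figure D3:**
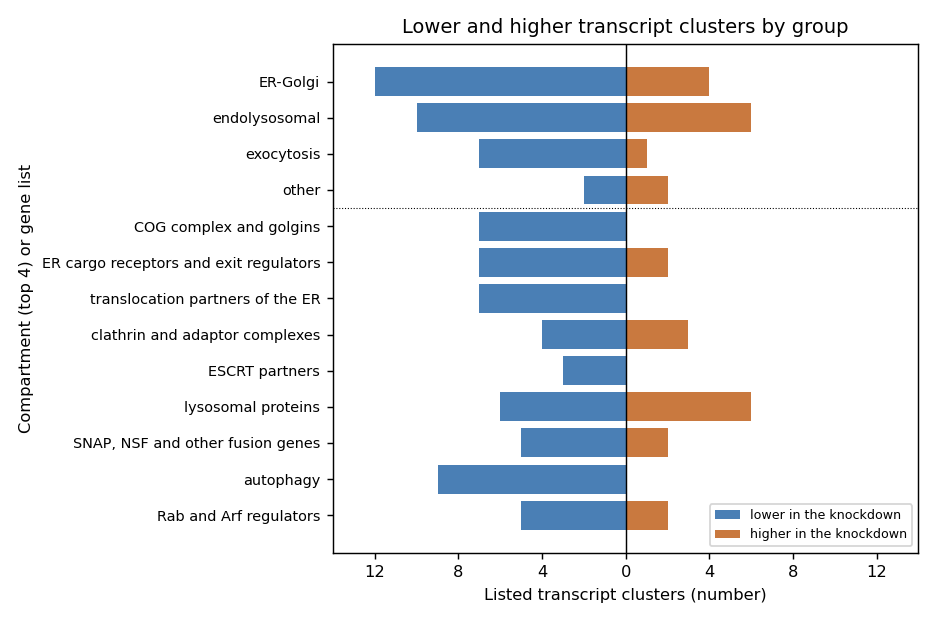
Number of listed transcript clusters that were lower (bars to the left) or higher (bars to the right) in the Grp94 knockdown (x axis), for the 4 compartments of the members and the 9 other trafficking gene lists (y axis). COG complex and golgins, translocation partners, ESCRT partners and autophagy have bars on the left only (on re-centring only autophagy does), and lysosomal proteins have 6 on each side.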

How the data were processed

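Affymetrix Mouse Gene 1.0 ST arrays of N2a RNA (4 control vector, 4 Grp94 knockdown) were run by the authors and analysed in GeneSpring GX, where genes under the 20th percentile of expression were left out. Groups were taken from the sample titles, which do not say whether the control vector was the unfilled or the non-targeting one. The authors' deposited table gives 1 log2 mean per group, centred for each transcript cluster. Summarization, normalization and genome build are not given in the sources used here. All 2395 rows have a q-value at or under 0.01. The authors' own comparison (deposited p-values, q-values, fold changes and direction) was not used, except for that limit and to check the log2 scale, since 2 raised to the difference of means equalled the deposited fold within 1e-05 in 2395 rows.

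The differences of means, counts by sign and size, medians and promoter matches were computed in Python 3.11.15 (numpy 2.4.6, pandas 2.3.3, scipy 1.17.1, matplotlib 3.10.9). Without values per array no linear model, standard error or permutation test over samples was run. The number of arrays limits the precision. Compartments and roles came from a hand-written list of genes, and symbols were matched to RefSeq (GRCm38.p6) by Entrez identifier. Members were named, and from the 9 other lists the genes beyond a fold of 1.3 and the 2 largest differences, except that a few genes are counted but not reported by name here. Members and lists were chosen with earlier results of these data known. The symbol rule, counts and motif search were tested on simulated data.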

Additional observations from a re-analysis of the deposited data

How the results depend on the processing

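No paired analysis was possible because the deposited table holds group means and no value per array, and for the same reason no array could be left out. The alternative that keeps only clusters without a conflict with the chromosome or strand of the RefSeq gene was chosen after the data were seen. Re-centring on the listed median lowered the share of lower members from 70.5% to 54.5% and gave 1 lower and 7 higher members beyond a fold of 1.3, in place of 5 and 2. It raises every listed value by the same amount. The share of all listed clusters beyond that fold was not counted after re-centring, so these counts say nothing particular about the members. At a fold of 1.1 there were 26 lower and 12 higher members, at 1.2 there were 14 and 6, and at 1.5 there were 1 and 0. Lower members were 59.1%, 31.8% and 2.27% at these folds, beside 54.7%, 31.8% and 5.34% of all listed clusters, and higher members 27.3%, 13.6% and 0%, beside 34.1%, 14.8% and 1.42%. Atp6v1f counted once, or only on its own chromosome, left 1 higher member. The log2 gap between the ER-Golgi and endolysosomal medians, -0.056, was -0.093 with single-symbol clusters alone, -0.10 without conflicting clusters, -0.017 without V-ATPase subunits, -0.015 without sorting nexins and -0.13 as a gap of means, and it was negative under each of these. Of the other 30 values, 9 could not move, because the alternative left their clusters or their contrast as they were. The other 21 moved by less than the limits used, which were the exact binomial 95% interval of a share, 1.5 times a count, and the second decimal of a median. That interval takes clusters as independent, which those of the same arrays are not, and serves as a yardstick only.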
